A study of Mus musculus with 5 samples.

Results

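Transcript levels in KSL cells of C57BL/6 mice transduced with a knockdown retrovirus against the long non-coding RNA LncHSC-1 were set against those of KSL cells given a knockdown retrovirus against LncHSC-2. KSL cells are the c-Kit+, Sca-1+ and lineage-negative fraction of mouse bone marrow, which holds blood stem cells and early multipotent progenitors. Features whose mean FPKM (fragments scaled by transcript length and by the size of the library) over the 2 libraries was at least 5 were kept, which gave 9147 of the 38166 features in the tables. Of these, 7978 carried the symbol of a named gene, 707 carried the symbol of a predicted gene, a clone or a small RNA, and 462 were unnamed transcript models. The feature next inside this limit was Gm14680, with 4.82 FPKM for LncHSC-1 and 5.19 for LncHSC-2. The feature next outside it was 5031425E22Rik, with 4.80 and 5.20 FPKM.

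The 2 libraries belong to a series of 5 samples, and the other samples were not used. In both groups Sca-1+ bone marrow cells were taken from mice injected with 5-FU (5-fluorouracil, which kills dividing blood cells) and transduced with a retrovirus carrying GFP. After 2 days in medium with 10 ng/ml mSCF (stem cell factor) and 100 ng/ml mTPO (thrombopoietin), c-Kit+Sca-1+Lin-GFP+ cells were sorted and polyA-selected RNA was sequenced. The groups therefore shared the drug, the transduction and the culture, and differed in the RNA that was targeted. The age and number of the mice, the knockdown construct and any pooling are not stated in the labels. The labels and tables do not say which features are the targeted RNAs, so how far each was reduced could not be read.

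There was 1 library in each group, so no difference below has a replicate check or a test. A gene that is higher in the LncHSC-1 library cannot be told apart from one that is lower in the LncHSC-2 library, since the control library was left out. In these bulk samples, more cells of a type and more RNA per cell also cannot be told apart. The estimated depth was 24145600 reads for LncHSC-1 and 19934925 for LncHSC-2, and 9150 and 9133 features reached 5 FPKM. The transcripts of the sorting markers were present in both libraries: Kit, the stem cell factor receptor, stood at 59.1 FPKM in LncHSC-1 and 62.0 in LncHSC-2. Ly6a, which encodes Sca-1, stood at 1211 and 1025 FPKM. Cd34, a surface marker of progenitors, stood at 204 and 237 FPKM.

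Blood progenitors carry receptors for type I and type II interferons, which signal through JAK kinases and STAT transcription factors. The STAT complexes and the interferon regulatory factors (IRFs) then switch on several classes of gene: nucleic acid sensors, antiviral effectors, GTPases that attack intracellular pathogens, chemokines and the machinery of antigen presentation. KSL cells also include multipotent progenitors that begin to transcribe lymphoid genes before they commit to a lineage.

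The 2 libraries were nearly alike for most genes. The named genes with the highest ratios included chemokine, interferon-inducible, class II and B lineage genes. The named gene furthest from 0 in either direction was Rn45s, the ribosomal RNA precursor, which was lower in LncHSC-1. Differences are given as the log2 ratio of FPKM + 1, LncHSC-1 over LncHSC-2, which understates the difference of low genes. By this measure 99.3% of the 7978 named genes lay within 1.5-fold, and the standard deviation of their log2 ratios was 0.147. At least a 2-fold difference was seen for 10 named genes higher in LncHSC-1 (0.125% of named genes) and for 2 lower (0.0251%). At 1.5-fold there were 49 higher (0.614%) and 4 lower (0.0501%). Among named genes more of the differences of this size were thus higher than lower in LncHSC-1, although 60.1% of named genes had a log2 ratio below 0, 39.9% had one above 0 and the median of all features was −0.03. Over all features the numbers past 2-fold were even, with 51 higher (0.558%) and 54 lower (0.590%), and with at least 50 estimated reads they were 14 and 13.

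**Figure D1:**
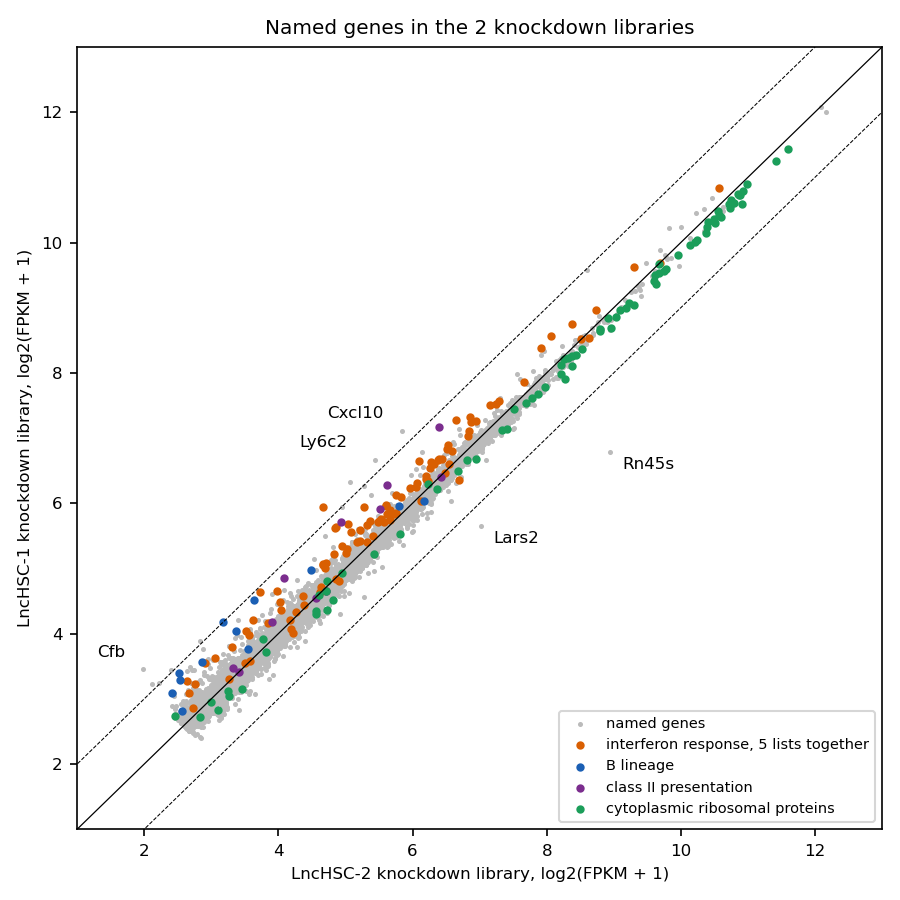
Level of each named gene in the LncHSC-1 library (vertical axis) against the LncHSC-2 library (horizontal axis), both as log2(FPKM + 1), with 1 point for each of 7978 genes; the solid line marks equal levels and the dashed lines a 2-fold difference. Interferon response genes (orange), B lineage genes (blue) and class II genes (purple) lie mostly above the line, ribosomal protein genes (green) mostly below it, and Rn45s and Lars2 are the 2 named genes under the lower dashed line.

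The gene with the largest ratio was Cfb, which encodes complement factor B, the protease of the alternative complement pathway. Cfb (chr17:34993319-34999459 in mm9) stood at 9.92 FPKM in LncHSC-1 and 2.95 in LncHSC-2, a log2 ratio of 1.47. Its FPKM ratio without the added 1 was 1.75 on the log2 scale, with a 95% interval of 1.51 to 1.99. These exact binomial intervals cover the counting error of the estimated reads only, and they compare 2 libraries, not 2 conditions. The other complement genes with at least 5 FPKM did not share one direction: Cd55, which limits complement on the cell's own surface, had a log2 ratio of 0.44, properdin (Cfp) of −0.18 and Cd59a of −0.29. Under that limit C3, the central component, stood at 3.64 and 2.16 FPKM (0.55), C4b was at 0.65 and C1qa at 0.49.

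The chemokine genes with at least 5 FPKM were all higher in the LncHSC-1 library, though some only slightly. Of the 28 in the list, 8 reached the 5 FPKM limit, and all 8 had a log2 ratio above the median of all features, with a median excess of 0.61 over it. For comparison, 3986 of all 7978 named genes lay above that median. Cxcl10, an interferon-induced ligand of the receptor CXCR3, stood at 137 FPKM in LncHSC-1 and 56.4 in LncHSC-2 (log2 ratio 1.27, interval of the FPKM ratio 1.19 to 1.38). Cxcl11, a second ligand of that receptor, stood at 8.35 and 3.33 FPKM (1.11). Both are assigned to the same interval in the files, chr5:92760867-92843653. Ccl5, which attracts T cells and monocytes, stood at 79.5 and 32.4 FPKM (1.27, interval 1.10 to 1.49). Ccl4 and Ccl3, which encode macrophage inflammatory proteins, were at 0.81 and 0.36 on the log2 scale. The rest were nearly equal: Ppbp at 0.10 (interval −0.19 to 0.43), Pf4 at 0.09 and Ccl9 at 0.05 (interval −0.01 to 0.11).

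The interferon response as a group was higher in the LncHSC-1 library, while its receptor genes stood close to the median. Of 120 genes in 5 interferon lists, 102 reached the limit; 95 lay above the median of all features and 7 below it, with a median excess of 0.30. At least 1.5-fold higher were 11 of the 102, against 0.614% of named genes. None was 1.5-fold lower, against 0.0501% of named genes.

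Receptors, kinases and their inhibitors had a median excess of 0.05 and 7 of 10 above it. The type I receptor genes Ifnar1 and Ifnar2 had log2 ratios of 0.03 and 0.14, and the kinase gene Jak1 of −0.09. The exception was Socs1, the feedback inhibitor of JAK kinases that is itself induced by interferon, at 7.49 FPKM in LncHSC-1 and 5.38 in LncHSC-2 (0.41). Ifnar1, Ifnar2 and Jak1 were named for their roles, after their values were seen.

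All 11 nucleic acid sensor genes lay above the median, with a median excess of 0.23. Zbp1, a sensor of Z-form nucleic acid, stood at 154 FPKM in LncHSC-1 and 99.6 in LncHSC-2 (0.62). Ifi204, a DNA sensor of the PYHIN family, and Tlr7, the endosomal receptor for single-stranded RNA, were both at 0.64. The cytoplasmic RNA sensor genes Dhx58 and Ifih1 were at 0.27 and 0.23, and Ddx58, which encodes RIG-I, was at 0.19. In contrast to the sensors above, Tmem173, which encodes the adaptor STING, was at −0.01.

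Among 16 transcription factor genes of the response, 15 lay above the median, with a median excess of 0.22. Irf7, the main amplifier of type I interferon production, stood at 377 FPKM in LncHSC-1 and 265 in LncHSC-2 (0.50, interval 0.47 to 0.54). Stat2, a subunit of the ISGF3 complex, stood at 46.1 and 32.8 FPKM (0.48). Batf2 was at 0.46, Irf8 at 0.42 and Irf5 at 0.32. The member of this list below the median was Irf2, at −0.09.

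Antiviral effectors formed the largest list, with 49 of 52 genes above the median and a median excess of 0.33. Ms4a4c, which encodes a membrane-spanning protein, stood at 60.3 FPKM in LncHSC-1 and 24.2 in LncHSC-2 (1.28, interval 1.21 to 1.42). Its neighbour Ms4a4b was at 0.67. The apolipoprotein L genes Apol9a and Apol9b were at 0.92 and 0.79. Ifit3, whose protein family binds foreign RNA, stood at 48.5 and 28.1 FPKM (0.77, interval 0.69 to 0.89). Mx1, a dynamin-like GTPase that blocks viral ribonucleoproteins, was at 0.64. Ifi27l1 went against the group, with 81.0 FPKM in LncHSC-1 and 102 in LncHSC-2 (−0.33).

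All 13 interferon-inducible GTPase genes lay above the median, with a median excess of 0.40. The guanylate-binding protein genes Gbp3 (60.2 FPKM in LncHSC-1 and 37.9 in LncHSC-2), Gbp5 (17.6 and 11.2) and Gbp9 (11.3 and 7.30) had log2 ratios of 0.66, 0.60 and 0.57. Gbp6 was at 0.48 and Igtp, an immunity-related GTPase, at 0.37. A pair of unnamed models that share the interval chr3:142679061-142737191, on the chromosome of Gbp3 and Gbp5, had larger ratios. HNG_025534 stood at 99.3 FPKM in LncHSC-1 and 32.9 in LncHSC-2 (1.56), and HNG_026509 at 28.4 and 9.32 (1.51). These models were chosen after their values were seen, and whether they belong to a Gbp gene was not tested.

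PYHIN genes at chr1 were also among the 25 highest named genes. Pyhin1 stood at 13.8 FPKM in LncHSC-1 and 6.12 in LncHSC-2 (1.05), and its neighbour Pydc3 at 9.91 and 4.27 (1.05). Of the 49 genes at least 1.5-fold higher, 12 lay within 100 kb of another of the 49, in the Cxcl10, Gbp, class II, PYHIN and Ms4a4 clusters. Of all 7978 named genes 85.0% lay within 100 kb of another. That set is far larger, so the shares are not alike, and clustering was not tested. Several of these genes have close paralogs (Ly6c1 and Ly6c2, Apol9a and Apol9b, Pydc3 and Pydc4, the Gbp and class I genes), so the division of reads between copies is uncertain.

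Promoters of a few of these genes are shown because STAT and IRF proteins bind a known motif, the interferon-stimulated response element. A window from 250 bases before to 50 bases after each gene's start (RefSeq, GRCm38.p6, a later build than the mm9 of the expression tables) was searched on both strands for the letters GAAA, any 2 bases, and GAAA again, and overlapping matches were allowed. Such a match occurs in 3.99% of the 27025 genes with a promoter in the table. Fewer than 80% of the genes at least 1.5-fold higher were matched to a promoter (32 of 49), so no share is given for them. These stretches were picked for holding a match. Windows that held none included those of Ms4a4c, Ms4a4b, Pyhin1, Ly6c2, Slfn4, Pou2af1, Cd79a, Axl, H2-Aa and H2-Eb1, among others. Windows of genes outside the interferon lists, such as Mrps21 and Gstt1, also held a match. Capitals mark 1 match, which reads TTTC, 2 bases and TTTC where it lies on the opposite strand of the gene, and in Gbp3 and Apol9a a further match overlaps its end and is left in lower case there.
Cxcl10 (chr5:92349085-92349110, minus strand): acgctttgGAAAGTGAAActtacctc
Ifit3 (chr19:34583365-34583390, plus strand): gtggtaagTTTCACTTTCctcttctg
Ifit3 (chr19:34583399-34583424, plus strand): taagtctgTTTCAGTTTCtactttcc
Gbp3 (chr3:142559991-142560016, plus strand): ggacacagTTTCAGTTTCtatttccc
Apol9a (chr15:77411122-77411147, minus strand): ggtgagacTTTCAGTTTCcatttccc
A match of letters is a description of the window and was not tested as a site.

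**Figure D2:**
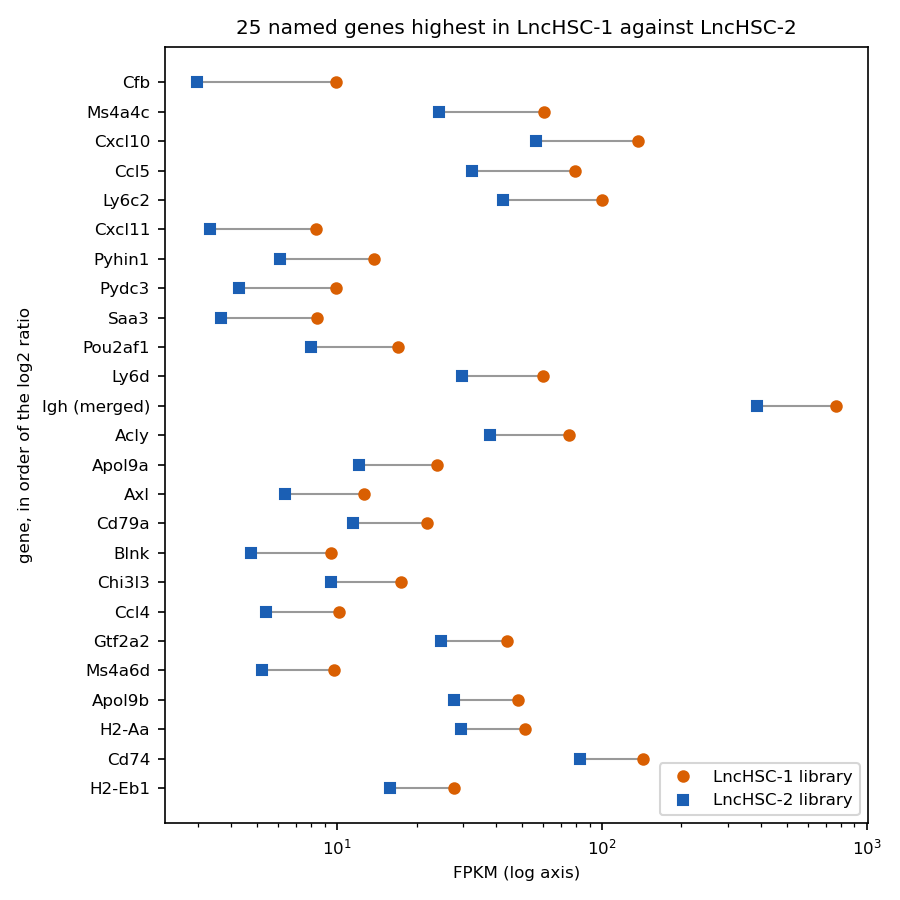
FPKM (log axis) of the 25 named genes with the highest log2 ratio, in order of that ratio, in the LncHSC-1 library (circles) and the LncHSC-2 library (squares), with 1 library each. The pairs range from Cfb (9.92 against 2.95) to H2-Eb1 (27.7 against 15.9), and the levels span from a few FPKM to the 766 FPKM of the merged Igh feature.

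Of the 25 highest named genes 18 (72%), and of the 49 at least 1.5-fold higher 34 (69.4%), belonged to 18 immune lists that hold 2.92% of named genes. None of the 25 lowest did, although Cd96, a receptor gene of T and NK cells that is in no list, was among them. The lists were chosen with earlier results of these data known, so these shares are a description.

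Antigen presentation genes of class II were higher in the LncHSC-1 library, and those of class I by less. Class II molecules present peptides on B cells, dendritic cells and macrophages, whereas nearly all cells carry class I. In the class II list 9 of 10 genes lay above the median, with a median excess of 0.36. H2-Aa, the alpha chain of the I-A molecule, stood at 51.3 FPKM in LncHSC-1 and 29.5 in LncHSC-2 (0.78). H2-Eb1, the beta chain of I-E, stood at 27.7 and 15.9 FPKM (0.77). Cd74, the invariant chain that occupies the peptide groove (counted together with a microRNA gene), stood at 143 and 83.0 FPKM (0.77, interval 0.71 to 0.86). Ctss, the protease that degrades the invariant chain, was at 0.65. H2-DMa, a chain of the peptide exchange factor, was at −0.03 and is named outside the rule after its value was seen.

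Class I genes had a median excess of 0.22, with 20 of 22 above the median. H2-T23, which encodes the Qa-1 molecule, stood at 309 FPKM in LncHSC-1 and 241 in LncHSC-2 (0.36). Tapbp, which encodes the loading factor tapasin, stood at 131 and 104 FPKM (0.33). B2m, the light chain shared by class I molecules, was 4342 and 4354 FPKM, with a log2 ratio that rounds to 0. It was named for its role after its values were seen.

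B lineage genes had a median 0.70 above that of all features. Of 13 that reached the limit, 11 lay above the median of all features and 7 were at least 1.5-fold higher, against 0.614% of named genes. At a limit of 20 FPKM, 4 of these genes remained, with a median log2 ratio of 0.05 and 50% of them higher in LncHSC-1. Pou2af1, the B cell coactivator of octamer-binding factors, stood at 17.0 FPKM in LncHSC-1 and 8.004 in LncHSC-2 (1.00, interval of the FPKM ratio 0.93 to 1.25). Cd79a, a signalling chain of the B cell receptor, stood at 21.95 and 11.5 FPKM (0.88). Blnk, the adaptor downstream of that receptor, stood at 9.53 and 4.75 FPKM (0.87). Tnfrsf13c, the receptor for the survival factor BAFF, was at 0.71 and Ms4a1, which encodes CD20, at 0.68. By contrast, Btk, a kinase also present in myeloid cells, was at −0.14.

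Whether whole B cells were in the sort was not tested, and the levels of the full list are given here. The 31 genes summed to 321 FPKM in LncHSC-1 and 255 in LncHSC-2, with 1 gene at 0 in LncHSC-1 and 2 in LncHSC-2. The 18 members under the limit held 2579 estimated reads in LncHSC-1 and 1168 in LncHSC-2, a log2 ratio of 0.84 (0.74 to 0.94) after multiplying the read ratio by 0.811, the median over features of the FPKM ratio divided by the read ratio. Among them Pax5, the factor that commits cells to the B lineage, was at 2.49 and 1.12 FPKM. Vpreb1, a surrogate light chain gene of early B cells, was at 0.33 and 0.69 FPKM, and so lower in LncHSC-1. Igll1, the other surrogate light chain gene, was at 0.05 and 0.06 FPKM.

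Among immunoglobulin features, which form no list here, 3 are described. The merged heavy chain feature at chr12, which includes Igh and Ighg1, stood at 766 FPKM in LncHSC-1 and 387 in LncHSC-2 (0.98). Its ratio by estimated reads was 0.55, and it was the 1 named gene of 7978 for which the measures differed by over 0.25. A light chain feature at chr6:70668896-70690548 stood at 520 and 259 FPKM (1.00, 9748 and 3916 estimated reads). Igj, the joining chain of secreted IgM and IgA, stood at 34.3 and 22.1 FPKM (0.61). The light chain feature was chosen after its values were seen.

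Genes of lymphoid priming, plasmacytoid dendritic cells and monocytes included several that were far higher in the LncHSC-1 library beside others that were equal. Ly6d, which marks lymphoid progenitors turning to the B lineage, stood at 60.3 FPKM in LncHSC-1 and 29.7 in LncHSC-2 (1.00). Ly6c2, a surface protein of monocytes and plasmacytoid dendritic cells, stood at 101 and 42.3 FPKM (1.23, interval 1.12 to 1.38). Cd52, a small surface glycoprotein of lymphocytes, was at 0.64. Flt3, the receptor of early lymphoid progenitors, was lower in LncHSC-1 at 21.98 against 24.7 FPKM (−0.16).

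In the lymphoid priming list 9 of 11 genes lay above the median, and its median excess was 0.09. In the plasmacytoid dendritic list 10 of 12 did, with an excess of 0.40, but without members shared with other lists 4 genes remained and 50% of them were higher in LncHSC-1. Pld4, a phospholipase D family member, was at 0.54 and the inhibitory receptor gene Lair1 at −0.24. Siglech, a defining marker of these cells, was under the limit at 2.998 and 2.07 FPKM. The list of 31 genes summed to 1538 FPKM in LncHSC-1 and 1141 in LncHSC-2. Most of this came from Bst2 (792 and 633) and Irf7 (377 and 265), which are also in the interferon lists.

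Monocyte and macrophage genes lay above the median in 14 of 15 cases, with an excess of 0.27. Ms4a6d stood at 9.74 FPKM in LncHSC-1 and 5.22 in LncHSC-2 (0.79). Cybb, the catalytic subunit of the phagocyte NADPH oxidase, stood at 11.2 and 6.75 FPKM (0.66). Mpeg1, the pore-forming perforin-2, was at 0.58 and Ms4a6c at 0.49. Other members that reached the limit were nearly equal, such as Lyz2 (0.10), Tyrobp (0.05) and Ctsc (−0.09). Members under the limit lay on both sides. Among them Fcgr1 (0.52) and Cd14 (0.39) were higher in LncHSC-1, Csf1r was at 0.10, and Ccr2 (−0.06) and Fcgr3 (−0.19) were lower. The 36 genes of the list summed to 529 FPKM in LncHSC-1 and 442 in LncHSC-2. The conventional dendritic list had 5 of 6 genes above the median with an excess of 0.05, and its marker Itgax (CD11c) was at 0.27 and 0.31 FPKM.

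T and NK lineage genes were mostly near 0 in both libraries. Only 7 of 35 reached the limit, 6 of them above the median, with an excess of 0.12. Thy1 stood at 9.87 FPKM in LncHSC-1 and 5.55 in LncHSC-2 (0.73), while Hcst, the signalling adaptor DAP10, was at −0.42. Cd3e, a defining chain of the T cell receptor complex, was at 0 in both libraries.

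Granulocyte genes were divided. In the mature granulocyte list 8 of 13 genes lay above the median, led by Chi3l3, a chitinase-like secreted protein, at 17.5 FPKM in LncHSC-1 and 9.53 in LncHSC-2 (0.81). Clec4e and Anxa1 were at −0.30 and −0.27. The calprotectin gene S100a8 was at 41.5 and 41.8 FPKM. Among primary granule and myeloid progenitor genes 11 of 21 lay above the median. Elane (−0.38) and Mpo (−0.28), which encode neutrophil elastase and myeloperoxidase, were lower in LncHSC-1, and Cebpb, a myeloid transcription factor gene, was higher (0.33).

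**Figure D3:**
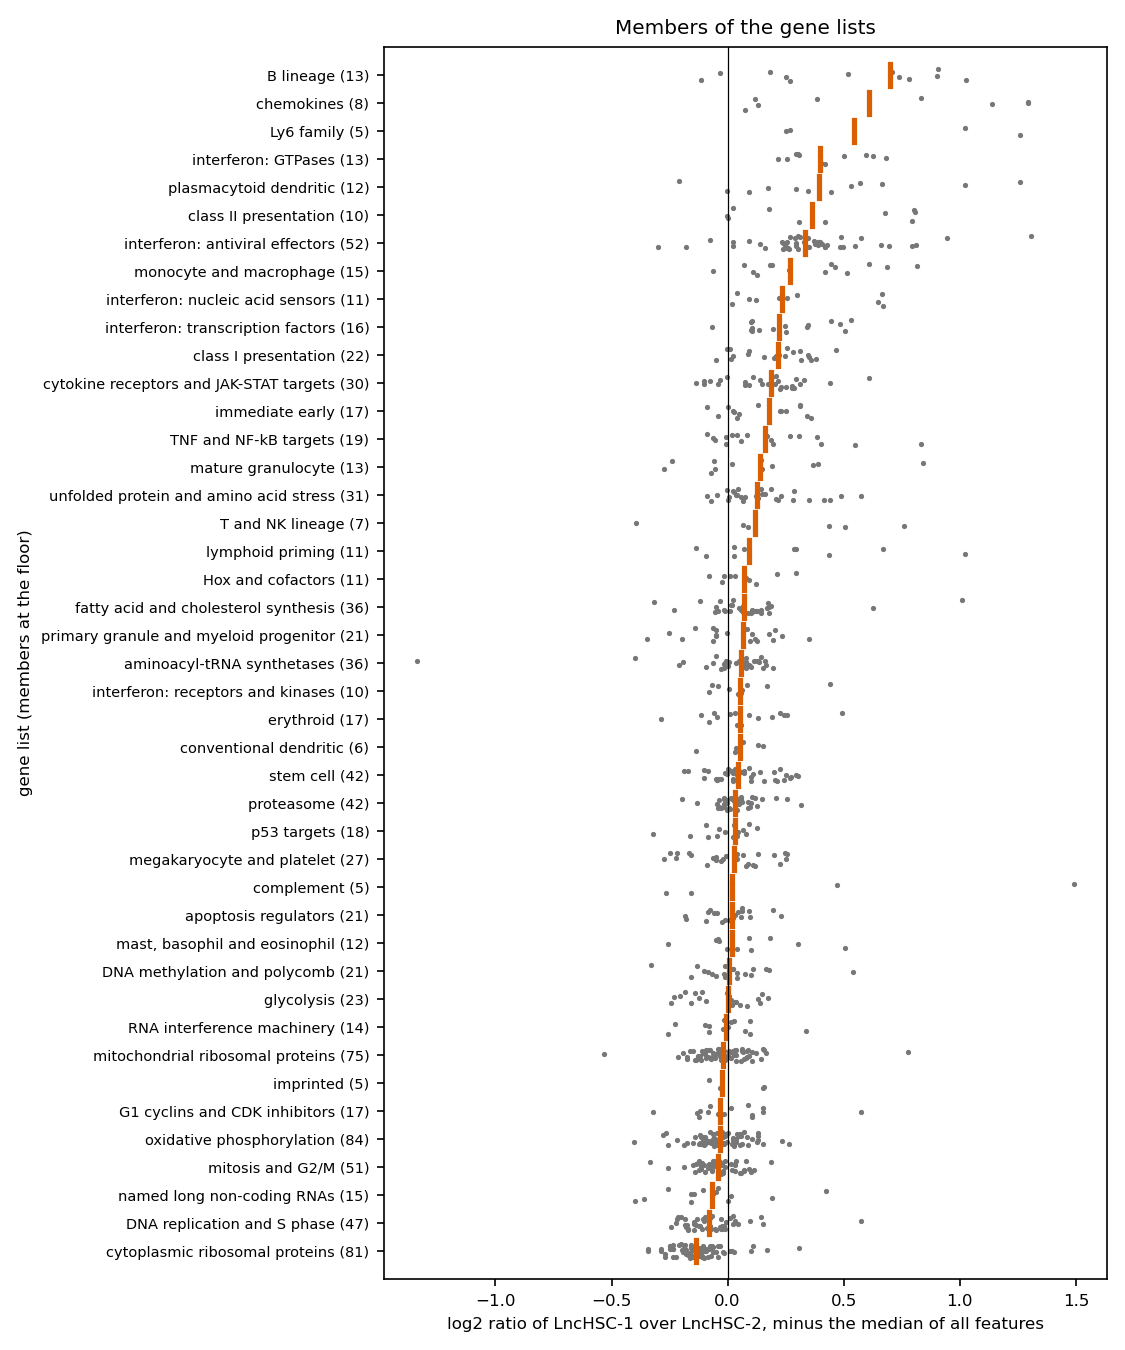
Log2 ratio of LncHSC-1 over LncHSC-2 minus the median of all features (horizontal axis) for the members of 43 gene lists (vertical axis, with the number of members at or above 5 FPKM); dots are genes and orange bars are list medians. The B lineage and chemokine lists have medians of 0.70 and 0.61, the Ly6 family, interferon GTPase, plasmacytoid dendritic and class II lists come next, and the cytoplasmic ribosomal protein list lies lowest at −0.13.

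Stem cell, megakaryocyte and erythroid genes differed little between the libraries. Of 42 stem cell genes 30 lay above the median, with an excess of 0.05. None was 1.5-fold apart, which is close to the share of named genes, at 0.614% higher and 0.0501% lower. Gata2, a transcription factor of stem cell maintenance, stood at 91.8 FPKM in LncHSC-1 and 75.6 in LncHSC-2 (0.28). Hoxa9, a homeobox gene of progenitors, was at 0.27, and Slamf1, which encodes the stem cell marker CD150, at 0.25. The progenitor marker Cd34 was at −0.22.

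Megakaryocyte and platelet genes lay on both sides, with 14 of 27 above the median. Selp (P-selectin) was at 0.23, while the platelet glycoprotein gene Gp9 was at −0.30 and Mmrn1 at −0.27. Among erythroid genes 12 of 17 lay above the median. The adult beta globin genes, counted together, stood at 85.8 FPKM in LncHSC-1 and 61.8 in LncHSC-2 (0.47), and the water channel gene Aqp1 was at −0.31. In the mast, basophil and eosinophil list 6 of 12 genes lay above the median.

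Signalling and stress genes tended to stand above the median by a small amount. Cytokine receptor and JAK-STAT target genes had 23 of 30 above it and an excess of 0.19, led by Tnfrsf13b, the TACI receptor of B cells (0.58), and Socs1 (0.41). Immediate early genes, which respond within minutes to stimulation, had 15 of 17 above it and an excess of 0.18. Fos, a subunit of AP-1, was in that list but under the limit at 5.35 and 3.56 FPKM. The inflammatory TNF and NF-kB targets had 14 of 19 above it, with Ltb (lymphotoxin beta) at 39.3 and 27.1 FPKM (0.52).

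Genes of the unfolded protein and amino acid stress responses lay above the median in 27 of 31 cases, with an excess of 0.13. Ddit3, which encodes the stress factor CHOP, stood at 15.6 FPKM in LncHSC-1 and 10.4 in LncHSC-2 (0.55). Atf5 was at 0.46, the chaperone gene Dnajb9 at 0.41 and Nupr1 at 0.39. Among p53 targets 11 of 18 lay above the median, and Cdkn1a, the cell cycle inhibitor p21, was lower in LncHSC-1 at 49.7 against 63.6 FPKM (−0.35).

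In the lipid synthesis list 2 genes, Acly and Scd1, were at least 1.5-fold higher in LncHSC-1. Acly, which makes cytoplasmic acetyl-CoA for lipid synthesis and histone acetylation, stood at 75.5 FPKM in LncHSC-1 and 37.8 in LncHSC-2 (0.98, interval of the FPKM ratio 0.95 to 1.05, from 9491 and 3851 estimated reads). Acly lies at chr11:100337666-100389314 in mm9. Scd1, the stearoyl-CoA desaturase, was at 0.60. The 36 fatty acid and cholesterol synthesis genes had a median excess of 0.07, and Insig2 and Stard4 were at −0.35 and −0.26. Glycolysis genes had 13 of 23 above the median of all features.

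Several of the highest named genes belong to none of these groups. Saa3, an acute-phase serum amyloid, stood at 8.42 FPKM in LncHSC-1 and 3.64 in LncHSC-2 (1.02), but from 92 and 32 estimated reads, with an interval of 0.62 to 1.84. Axl, a receptor tyrosine kinase that senses dying cells, stood at 12.6 and 6.36 FPKM (0.89). Gtf2a2, a subunit of the general factor TFIIA, stood at 44.0 and 24.8 FPKM (0.80). Jarid2, a partner of polycomb complex PRC2, was at 0.51 in a chromatin list whose median lay on that of all features.

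The genes lower in the LncHSC-1 library were fewer and of other kinds. Rn45s, the precursor of ribosomal RNA, which polyA selection is meant to remove, stood at 109 FPKM in LncHSC-1 and 493 in LncHSC-2 (−2.17, from 18262 and 67010 estimated reads). Lars2, the mitochondrial leucyl-tRNA synthetase, stood at 49.2 and 128 FPKM (−1.36, interval of the FPKM ratio −1.43 to −1.34). An unnamed model at the same interval, HAG_042880 (chr9:123276058-123371782), stood at 205 and 611 FPKM (−1.57), so which transcript the Lars2 reads came from is uncertain. The other aminoacyl-tRNA synthetase furthest below 0 was Qars, at 46.6 and 63.0 FPKM (−0.43), and 22 of 36 genes of that list lay above the median. The part of carried-over ribosomal RNA in the other differences was not tested.

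After these, no named gene was 2-fold lower. Dynlt3, a light chain of the dynein motor, stood at 22.6 FPKM in LncHSC-1 and 37.7 in LncHSC-2 (−0.71, interval −0.84 to −0.63). Ube2z, a ubiquitin-conjugating enzyme, stood at 18.8 and 29.1 FPKM (−0.61). Nlk, a kinase that acts on Wnt pathway factors, stood at 6.13 and 9.64 FPKM (−0.58).

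The rest of the 25 lowest named genes lay between −0.57 and −0.43. They included genes of gene expression, such as Taf13 (−0.56), a TFIID subunit, Cpsf2 (−0.46), a subunit of the polyadenylation machinery, and the stress-responsive factor gene Atf2 (−0.51). Mitochondrial functions were represented by Trmt61b (−0.57), a tRNA methyltransferase, Mrpl11 (−0.56), a ribosomal protein, and Ndufc2 (−0.43), a subunit of complex I. Rab11a (−0.44) and Rab1 (−0.44) encode GTPases of vesicle transport, and Rps6ka3 (−0.51) encodes the kinase RSK2. Cd96, a surface receptor of T and NK cells, stood at 17.0 and 23.6 FPKM (−0.45). Commd3, Mycbp, Fgfr1op2, Bbx, Pnpla8, Cela1, Eya2, Bex1, Pacrgl and Ammecr1 made up the rest of the 25.

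**Figure D4:**
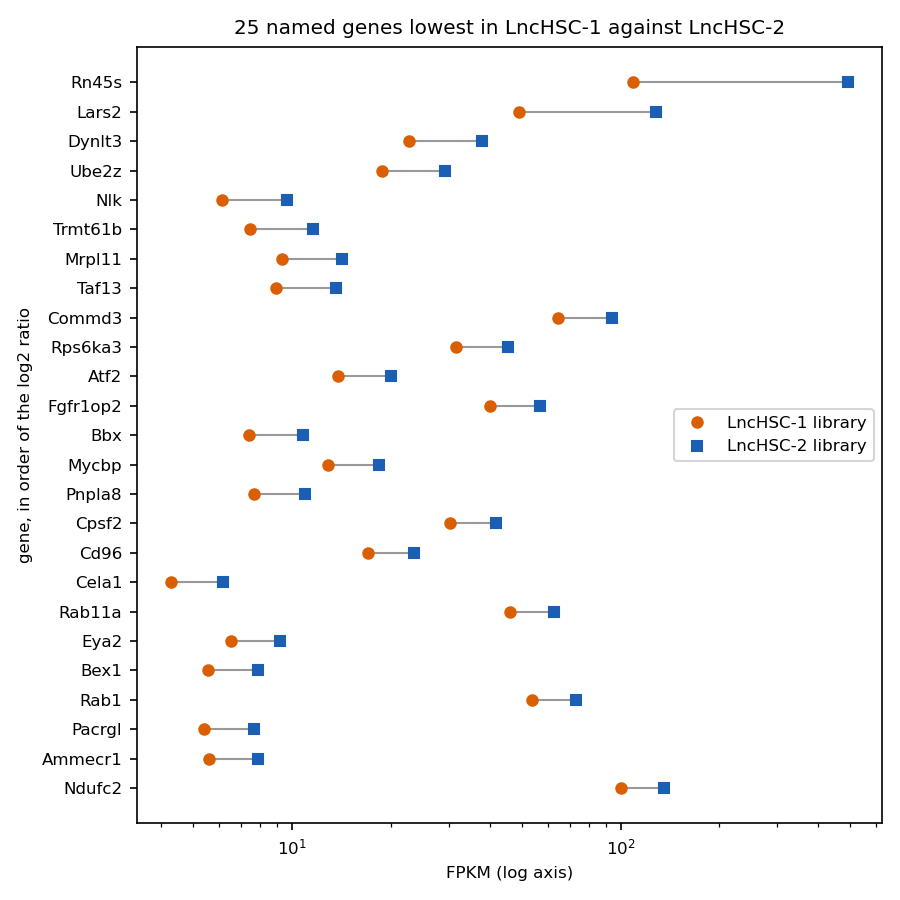
FPKM (log axis) of the 25 named genes with the lowest log2 ratio, in order of that ratio, in the LncHSC-1 library (circles) and the LncHSC-2 library (squares), with 1 library each. Rn45s (109 against 493) and Lars2 (49.2 against 128) are widely separated, and from Dynlt3 (22.6 against 37.7) on the pairs lie close together.

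Ribosomal protein genes, and by less the genes of replication and mitosis, lay more often below the median of all features. Their direction against 0 depends on the scale. By the count columns as deposited, the median log2 ratio was −0.01 for cytoplasmic ribosomal proteins, 0.10 for mitochondrial ribosomal proteins, 0.03 for replication and 0.07 for mitosis. Of 81 cytoplasmic ribosomal protein genes 74 lay below the median of all features, by 0.13 in the median, and their summed FPKM was 0.895 times that in LncHSC-2. Rpl22l1 stood at 239 FPKM in LncHSC-1 and 309 in LncHSC-2 (−0.37), and Rpl39 at 1549 and 1927 (−0.32). Rpl12 was at 0.28, on 5.68 and 4.49 FPKM with an interval of −0.19 to 0.87. Mitochondrial ribosomal protein genes lay below the median in 44 of 75 cases, with Mrps21 apart from the rest at 68.9 and 40.6 FPKM (0.75). Oxidative phosphorylation genes lay below it in 57 of 84 cases, and the complex III gene Uqcrb was at −0.30.

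Of 47 DNA replication genes 38 lay below the median, by 0.08 in the median. Pcna, the sliding clamp of DNA polymerase, stood at 240.3 FPKM in LncHSC-1 and 286 in LncHSC-2 (−0.25), and Pole2, a subunit of polymerase epsilon, at 19.9 and 24.2 (−0.27). Ccne2, the cyclin that drives entry into S phase, was higher in LncHSC-1 at 12.97 against 8.56 FPKM (0.55). Mitosis genes lay below the median in 36 of 51 cases, by 0.04. Cenpa, the centromeric histone, stood at 56.6 and 73.0 FPKM (−0.36), and Ect2, which starts cytokinesis, was at −0.28.

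Of 15 named long non-coding RNAs 11 lay below the median. Every small nucleolar RNA host gene of the Snhg series that reached the limit was among the 11. The small nucleolar RNA host genes Snhg4 (23.7 FPKM in LncHSC-1 and 32.2 in LncHSC-2), Snhg8 (19.4 and 25.7) and Snhg3 (62.7 and 76.5) had log2 ratios of −0.43, −0.39 and −0.28. Malat1, an abundant nuclear RNA, was higher at 60.8 against 46.0 FPKM (0.40). The merged Mir17hg feature (0.16), Neat1 (−0.01) and Tug1 (−0.02) also lay above the median of all features. Genes of the RNA interference machinery, which processes small RNAs, were evenly divided, with 7 of 14 above the median. Its furthest member was Mov10, a helicase also induced by interferon, at 41.3 and 33.1 FPKM (0.31). Proteasome genes had 27 of 42 above the median, led by the immunoproteasome subunits Psmb10 (0.29) and Psmb9 (0.23).

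Differences of the unnamed models were mostly those of a few reads. Over all 9147 features, 127 (1.39%) were at least 1.5-fold higher in LncHSC-1 and 86 (0.940%) at least 1.5-fold lower. Of the 105 features past 2-fold, 84 were unnamed models, of which 72 had fewer than 50 estimated reads in the mean, and none of the 12 named genes did. HNG_015337 was listed at 711 FPKM in LncHSC-2 from 1 estimated read and at 0 in LncHSC-1. HNG_002377 was listed at 389 FPKM in LncHSC-1 from 2 reads and at 0 in LncHSC-2. Both libraries are at or under 3 counts there, so no fold is given. In all, 34 features had no read in one library.

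A few unnamed models had ample reads and were chosen after their values were seen. HNG_024632, at chr3:5860355-5860770, stood at 1565 FPKM in LncHSC-1 and 4560 in LncHSC-2 (−1.54, from 2514 and 5694 estimated reads). HND_000993, at chr13:9833543-9833780, stood at 246 and 810 FPKM (−1.71, from 427 and 1095 reads). Both were thus lower in the LncHSC-1 library, as Rn45s and the model at Lars2 were.

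**Figure D5:**
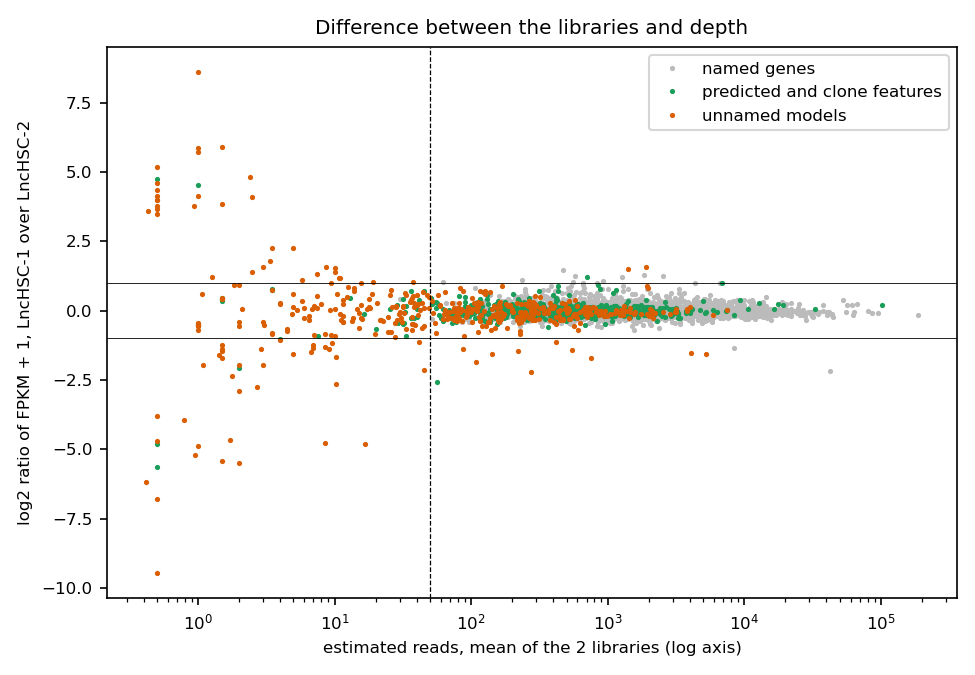
Log2 ratio of FPKM + 1, LncHSC-1 over LncHSC-2 (vertical axis), against the mean estimated reads of the 2 libraries (horizontal, log axis) for 9147 features; horizontal lines mark 2-fold and the dashed line marks 50 reads. The wide spread at the left is made of unnamed models (orange), and named genes (grey) stay within 2-fold except for 12.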

How the data were processed

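RNA sequencing of 2 KSL libraries was analysed, 1 per knockdown. The deposited tables give FPKM and a count column for each feature, per the file headers. The build mm9 and DESeq are named in the submitters' processing notes; the aligner and counter are not given in these sources. FPKM values as deposited by the authors were used without rescaling. The deposited count columns were treated as a signal, reads times a library factor: 92.1% and 91.7% of values up to 20 reads were whole multiples of a step (0.924 and 1.03) within 0.1 read. Dividing by the step gave estimated reads, which were used for depth and intervals, not for a count test. Strand is not stated, so reads of antisense genes cannot be told apart.

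Tables were joined on feature identifiers; for 17 features the interval differed between tables. Python 3.11.15, pandas 2.3.3 and scipy 1.17.1 were used. Features needed a mean of at least 5 FPKM; ratios are log2((FPKM + 1)/(FPKM + 1)). Ratio code was checked on simulated data. Lists are described relative to the median of all features, because the count columns shift that median by 0.14. Named genes are the 25 highest and 25 lowest by log2 ratio, up to 6 members of each list furthest from 0, the sort markers and the features next to the limit; genes named besides these were chosen after their values were seen. Some genes that the rule takes are left out of the text. Members and lists were chosen with earlier results of these data known. The alternatives tried were other pseudocounts, floors, fold limits and scalings, the count columns, a minimum of 50 reads and lists without shared members.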

Additional observations from a re-analysis of the deposited data

How the results depend on the processing

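With 1 library per group nothing could be left out. No paired analysis was possible because each group had 1 library. The 25 highest and 25 lowest named genes kept their direction under the alternatives in which they were measured, and no value reversed. This could hardly come out otherwise. A pseudocount, floor or read minimum cannot change the sign of a ratio. The scalings differed by 0.14 in the median of all features, and these genes were picked for larger ratios. The numbers of features at least 2-fold higher and lower in LncHSC-1 (51 and 54) became 106 and 107 with a floor of 1 FPKM, 15 and 29 with a floor of 20, 133 and 133 with no floor, 14 and 13 with at least 50 reads, and 127 and 86 at 1.5-fold. The number higher was 33 with a pseudocount of 5 FPKM. Named genes (10 higher and 2 lower) became 4 higher with that pseudocount and with a floor of 20, 16 higher and 5 lower with no floor, 4 lower with a floor of 1, 20 higher with the count columns as deposited, and 49 higher and 4 lower at 1.5-fold. The share of 2-fold features that were higher was 48.6% by FPKM, 61.1% by the count columns as deposited and 34.1% with a floor of 20; for named genes it was 83.3%, 90.9% and 66.7%.

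The share of a list's members with a ratio above 0 depends on scaling, because the median of all features was −0.03 by FPKM and 0.12 by the count columns as deposited. By those columns it was 100% for the interferon receptor, sensor and transcription factor lists, class I, class II, B lineage, monocyte, Hox, TNF, immediate early, stress and imprinted lists. It was 98.0% for the 5 interferon lists together, 96.7% for cytokine receptors, 95.2% for stem cell and proteasome genes, 94.1% for erythroid, 91.7% for mast cell and fatty acid genes and 90.9% for lymphoid priming. It was 90.5% for apoptosis, 88.9% for p53 targets and tRNA synthetases, 86.9% for oxidative phosphorylation, 86.7% for mitochondrial ribosomal proteins, 85.7% for RNA interference and polycomb genes and 84.6% for mature granulocyte genes. It was 81.0% for primary granule, 80.4% for mitosis, 77.8% for megakaryocyte, 76.5% for G1, 69.6% for glycolysis, 61.7% for DNA replication, 60% for long non-coding RNAs and 44.4% for cytoplasmic ribosomal proteins. Some lists had under 50% of members higher by FPKM and over 50% by these columns. Of these, replication, mitosis, oxidative phosphorylation, long non-coding RNAs, mitochondrial ribosomal proteins, G1 and imprinted genes stayed under 50% once centred on the median. Their direction holds only relative to the median. For the rest no direction held: by centred FPKM glycolysis was at 56.5%, polycomb 52.4%, RNA interference 50%, apoptosis 57.1%, megakaryocyte 51.9% and complement 60%. After centring, the sensor list was at 100% by either measure, and by counts class II was at 100% and the proteasome at 71.4%. With a floor of 20 FPKM complement (0%), B lineage (50%, 4 genes), plasmacytoid dendritic (100%), polycomb (11.1%) and imprinted genes (0%) moved. Without shared members the plasmacytoid dendritic (50%), conventional dendritic (100%), monocyte (100%) and megakaryocyte (25%) lists moved. The cause was not tested. Depth limits genes with few reads: 78 of the 105 features past 2-fold had under 50.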
